A study of Arabidopsis thaliana with 25 samples.

Results

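Class III peroxidases are a family of secreted haem enzymes found only in plants. The 60 genes described here were chosen by a list of Arabidopsis thaliana gene identifiers, and are 60 of the 27206 nuclear protein-coding genes that were counted. They were read in 25 root libraries from 10 groups, which combine 3 genotypes with 4 phosphorus (P) regimes. The plants were phr1 phl1 and phf1 mutants, which share the Col-0 background, and wild-type Col-0, harvested at 8 weeks. phf1 is mutated in a protein without which phosphate transporters do not get to the plasma membrane, and phr1 phl1 in the transcription factors PHR1 and PHL1, main regulators of the phosphate starvation response (PSR). The soil came from field plots kept under low, medium or high P fertilization, and low+P pots held low P soil to which 12.6 mg P per pot was added as potassium phosphates. There were 3 libraries each of phf1 low P, phf1 medium P, phf1 high P, Col-0 low P, Col-0 medium P and Col-0 high P, 2 each of phr1 phl1 low P, phf1 low+P and Col-0 low+P, and 1 of phr1 phl1 low+P. Within a group the libraries are called A, B and C, and these letters carry no order and pair nothing.

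Class III peroxidases use hydrogen peroxide to oxidise phenolic compounds in the cell wall. In roots they are known for polymerising monolignols into lignin, in xylem vessels and in the Casparian strip of the endodermis, for loosening and stiffening the wall of growing root hairs, and for producing reactive oxygen in the apoplast during defence. The hydrogen peroxide they use comes in part from superoxide made by the plasma membrane NADPH oxidases (RBOH proteins).

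Levels are given as CPM, the count of a gene scaled to the same total count in every library. Library totals ran between 2368981 and 7408960 counts, with a median of 4391517, so that a count of 0 allows a level of up to 3 counts, or 0.405 to 1.27 CPM depending on the library. Across 300 pairs of libraries, the closest pair was the library labelled phr1 phl1 low+P and phf1 low+P A, with a median chi-square of 0.824 per gene where sampling alone gives 0.455. A library of another regime, phf1 medium P B, was at 1.21 to phf1 low+P A and at 1.39 to the library labelled phr1 phl1 low+P. The closest pair from 1 group, Col-0 low P A and B, was at 1.24. PHR1, the gene mutated in phr1 phl1, was at 31.9 and 37.9 CPM in phr1 phl1 low P but the library labelled phr1 phl1 low+P held 73.6 CPM, against 49.0 to 77.9 CPM in the phf1 and Col-0 libraries. That library therefore goes by its label, and its level entered no comparison of genotypes or regimes. It was part of the fit of the 13 low P and low+P libraries, which gave the test across 6 groups. The comparisons of low P with low+P, and of genotypes in low P, also came from that fit. The library thus took part in their filter and scaling. It was also in the fit of all 25 libraries used as an alternative. PHL1, the other gene mutated in phr1 phl1, was at 79.3 and 95.9 CPM in phr1 phl1 low P and at 13.9 to 63.6 CPM in Col-0 low P, so its mRNA level did not mark the mutant. PHF1 ranged between 8.997 and 29.1 CPM in phf1 libraries and between 14.8 and 46.9 CPM in Col-0 libraries. Photosynthesis genes of leaves (7 genes, all detected in every library) summed to 2203.8 CPM in phf1 high P A and to 647.7 to 875.0 CPM in phf1 medium P, against 63.2 to 155.5 CPM in Col-0 medium P.

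A single gene, PRXR1 (AT4G21960), made up most of the family's mRNA. It ranged between 5575 and 17556 CPM over the 25 libraries and accounted for 33.3% to 79.5% (median 61.5%) of the summed level of the 60 genes. Per kilobase of exon, its mean level of 5365 CPM was 8.70 times that of the next gene, AT2G38390, at 617 CPM per kilobase. After these came AT3G32980 at 470.2, AT3G21770 at 411, Prx37 (AT4G08770) at 295, AT4G36430 at 272 and AT2G37130 at 201 CPM per kilobase. The eighth gene by CPM, AT2G38380, had a mean of 269 CPM and 161 CPM per kilobase. The remaining genes covered a wide range, since 19 of the 60 had a mean of at least 100 CPM, 26 lay from 10 to 100 CPM, 10 from 1 to 10 CPM and 5 under 1 CPM. In all 25 libraries 40 genes were detected, and 20 had a count of 0 in at least 1 library. AT4G17690 was detected in only 1 library, Col-0 medium P C, at 0.180 CPM.

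The summed level of the family differed less between libraries than most of its genes did. It ran between 10656.9 and 24841 CPM per library, with a median of 16058.5 CPM. In phf1 the group means were 15511.8 ± 2362.5 CPM in low P, 15604.1 ± 1735.3 CPM in medium P, 17649.8 ± 4464 CPM in high P (SD, n = 3 each) and 16267.7 ± 2514 CPM in low+P (SD, n = 2). In Col-0 they were 16596.9 ± 758 CPM in low P, 12865.6 ± 1963 CPM in medium P, 16744.2 ± 5377 CPM in high P (SD, n = 3 each) and 19526.9 ± 7515 CPM in low+P (SD, n = 2). The phr1 phl1 low P mean was 16091.9 ± 676 CPM (SD, n = 2). The low+P library with the phr1 phl1 label was at 13736.3 CPM. All Col-0 low P libraries, at 16058.4 to 17463.5 CPM, lay above those of Col-0 medium P, at 10656.9 to 14411.9 CPM, but within the ranges of Col-0 high P and low+P, and no test was run on this sum. PRXR1 itself was at 10466, 9277 and 6338 CPM in Col-0 low P and at 17556 and 9111 CPM in Col-0 low+P, and these ranges overlapped.

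**Figure D1:**
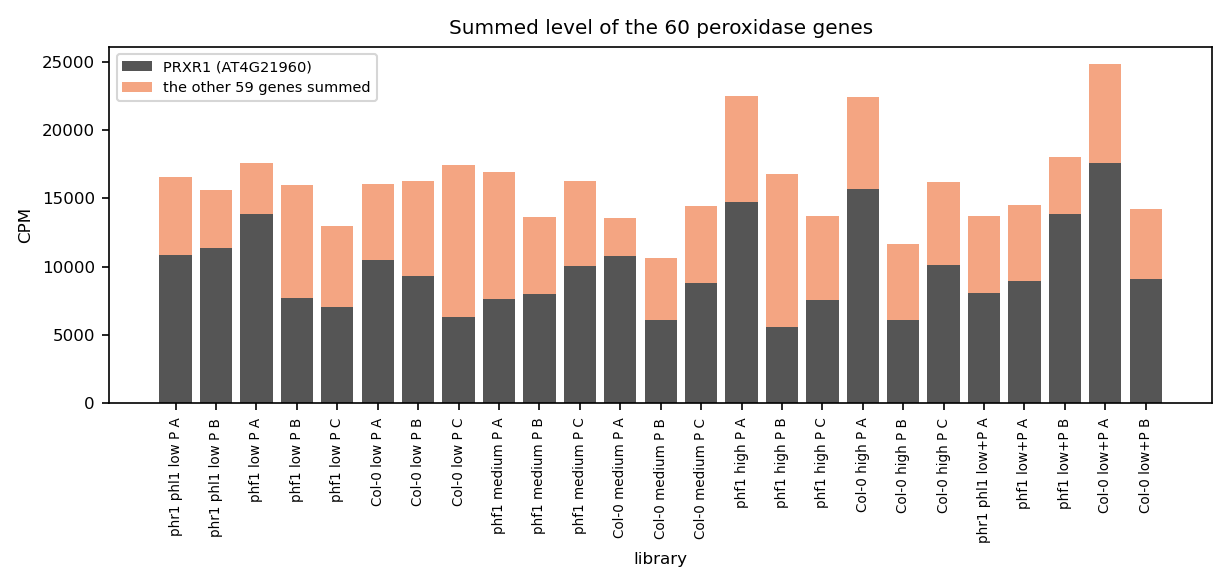
Summed level of the 60 peroxidase genes in each of the 25 libraries, in CPM on a linear axis that starts at 0, split into PRXR1 (dark) and the other 59 genes (light). The totals lie between 10656.9 CPM in Col-0 medium P B and 24841 CPM in Col-0 low+P A, and PRXR1 makes up 33.3% to 79.5% of them.

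Individual genes varied far more between libraries of 1 group than the sum did. Among the 45 genes with a mean of at least 10 CPM, the highest library was over 5 times the lowest, or the lowest was at 0, for 26 genes in Col-0 medium P and 25 in Col-0 low P. The counts were 23 for phf1 low P, 16 for phf1 medium P and 14 for phf1 high P, but 5 for Col-0 high P. The 20 genes with their highest level of all 25 libraries in Col-0 low P C made up the largest such set, followed by 11 in phf1 high P B. In Col-0 low P C, 38 genes were above both other Col-0 low P libraries, 17 of them at over 5 times the larger of these, and 15 were below both. None of these counts was made over all genes, so they do not set the family apart from other genes. The median of the family in each comparison that uses Col-0 low P is therefore also given without Col-0 low P C. Because the roots were sampled whole, fewer cells of a type and less RNA per cell cannot be told apart in these values.

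**Figure D2:**
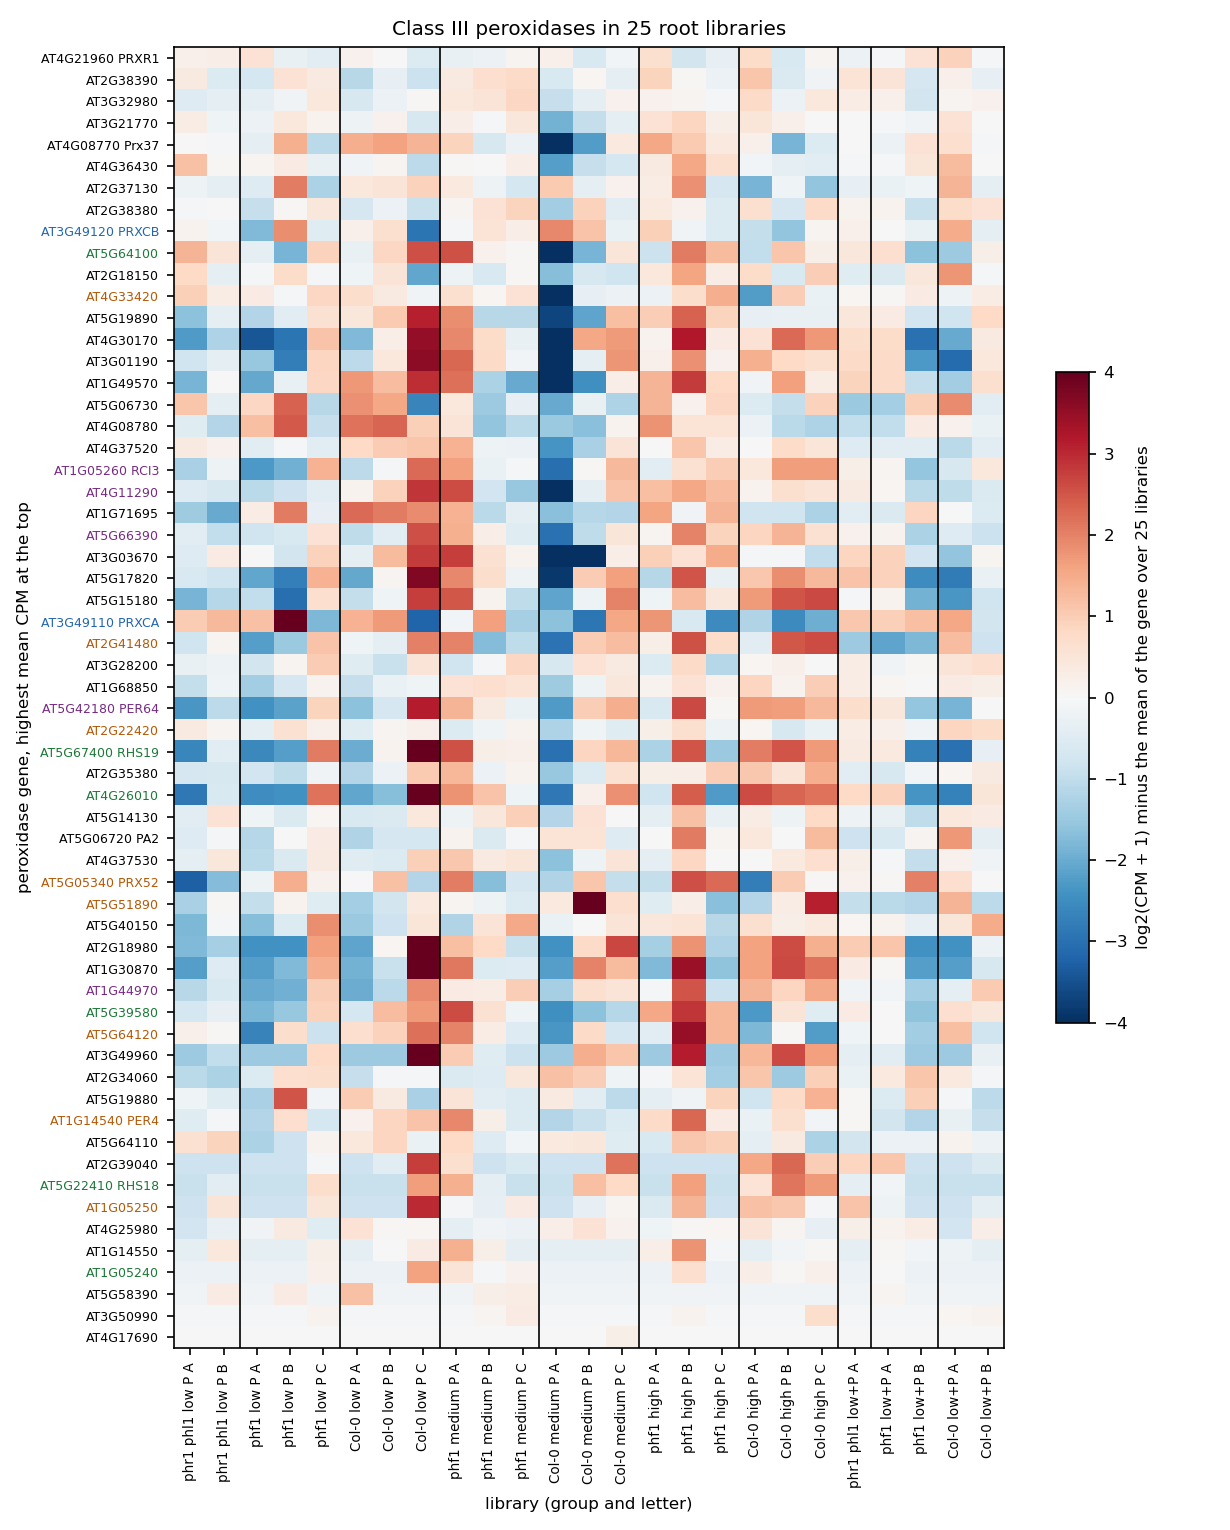
Levels of the 60 peroxidase genes (rows, highest mean CPM at the top) in the 25 libraries (columns, in groups), as log2(CPM + 1) minus the mean of the gene, with red above and blue below that mean. Green names mark root hair genes, purple Casparian strip genes, orange lignin genes and blue apoplastic burst genes. Col-0 low P C holds the highest value of 20 genes, and Col-0 medium P A is low for root hair and Casparian strip genes.

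Several of the genes lie side by side as tandem copies, and how well their reads could be told apart sets how far each level can be trusted. There were 8 tandem groups with 18 of the 60 genes. AT1G05240 and AT1G05250 have coding sequences that are 100% identical over 978 bases, so reads from one cannot be told from reads of the other in that part, and their separate levels (at most 2.59 and 12.9 CPM) are uncertain. The next closest pairs were Prx37 and AT4G08780 at 93.8% identity, AT4G37520 and AT4G37530 at 92.5%, AT2G38380 and AT2G38390 at 90.6%, and PA2 (AT5G06720) and AT5G06730 at 86.2%. Cut into stretches of 50 bases, 49 of the 60 genes held none that recurs in another gene, and 9 held at least 2% that do. The coding stretches below show these 5 closest pairs, with 1 stretch of 50 bases for each pair that has the median number of differences (RefSeq, TAIR10.1). Capitals mark the bases that differ from the neighbouring copy.
AT1G05240: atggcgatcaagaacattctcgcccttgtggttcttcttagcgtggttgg
AT1G05250: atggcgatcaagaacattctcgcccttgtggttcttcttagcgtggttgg
AT4G37520: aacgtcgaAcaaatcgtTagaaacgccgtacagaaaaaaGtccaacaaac
AT4G37530: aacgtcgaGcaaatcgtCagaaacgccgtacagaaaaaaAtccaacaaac
Prx37: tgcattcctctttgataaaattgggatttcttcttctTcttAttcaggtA
AT4G08780: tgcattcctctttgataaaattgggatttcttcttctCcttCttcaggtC
AT2G38380: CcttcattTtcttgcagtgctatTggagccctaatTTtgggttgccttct
AT2G38390: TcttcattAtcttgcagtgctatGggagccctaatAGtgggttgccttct
PA2: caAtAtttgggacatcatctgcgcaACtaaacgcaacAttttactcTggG
AT5G06730: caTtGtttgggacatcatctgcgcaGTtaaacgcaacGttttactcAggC

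Whether P supply changed the family in wild-type roots was first asked by comparing Col-0 low P with Col-0 medium P and Col-0 high P. AT1G71695, a peroxidase with no role in the lists used here, was the 1 gene called by edgeR in both comparisons, each time higher in low P. It was at 203, 178 and 157 CPM in Col-0 low P, at 12.2, 18.2 and 18.0 CPM in Col-0 medium P, at 23.6, 23.2 and 16.6 CPM in Col-0 high P, and at 42.2 and 27.9 CPM in Col-0 low+P. The Col-0 low P libraries did not overlap those of any other Col-0 regime. The log2 fold change was 3.50 (SE 0.268) for low P over medium P, with an adjusted p of 0.00316 by edgeR, and 3.21 (SE 0.266, adjusted p = 0.00652) for low P over high P. Without Col-0 low P C the adjusted p values were 0.0115 and 0.0152. In a fit of all 25 libraries, which shares the spread of every group, the fold changes were 3.49 and 3.22 and the adjusted p values 0.125 and 0.266, above the threshold of 0.1.

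**Figure D3:**
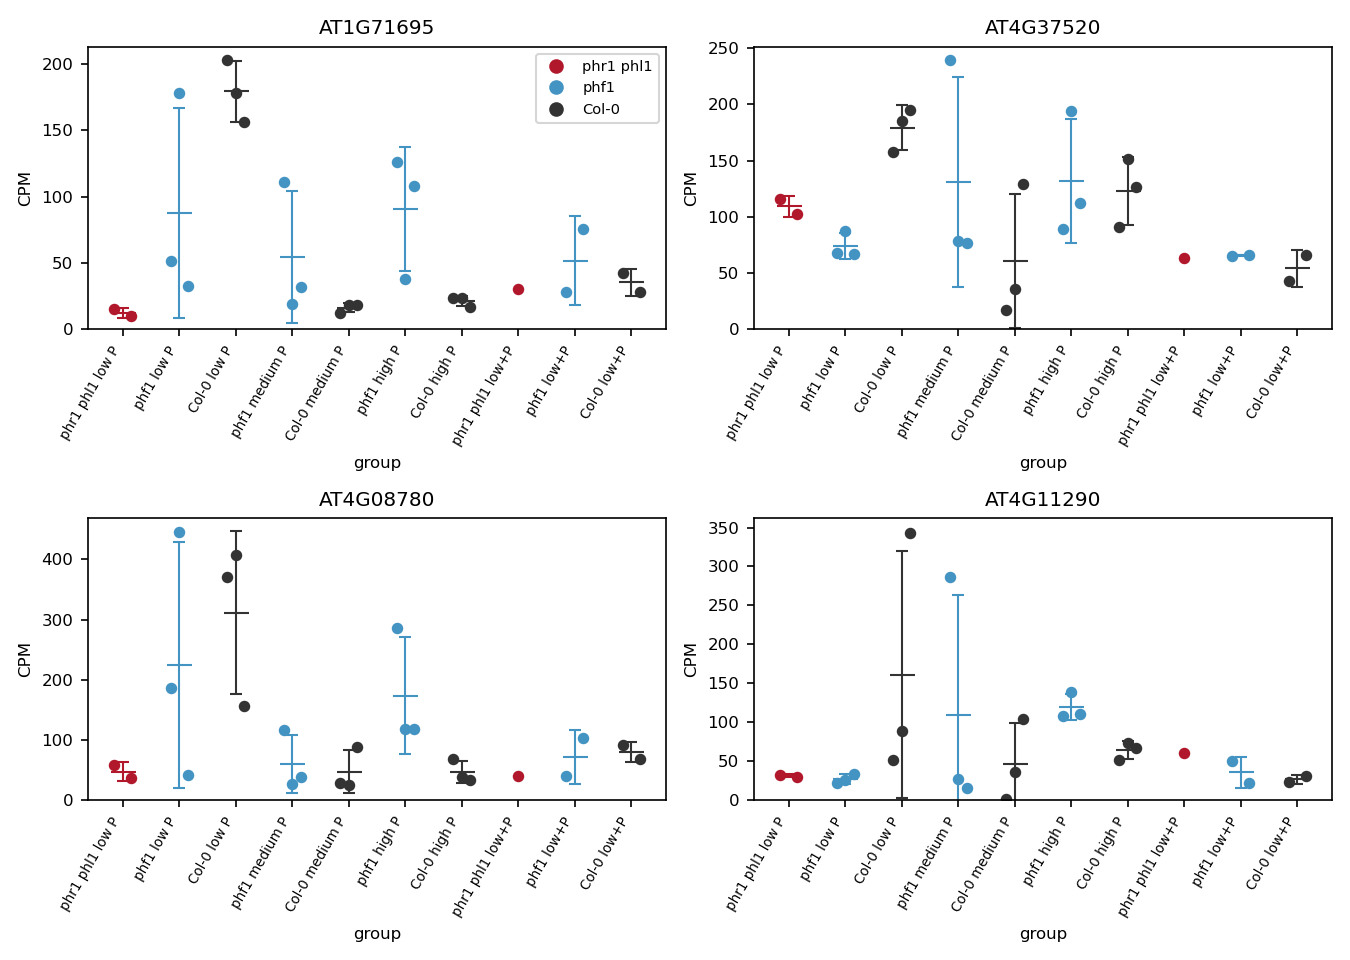
Levels of AT1G71695, AT4G37520, AT4G08780 and AT4G11290 in CPM on linear axes that start at 0, with 1 point per library, the group mean as a horizontal line and the SD as a bar, which is cut at 0 where it would go below. Red is phr1 phl1, blue phf1 and black Col-0. AT1G71695 in Col-0 low P lies at 157 to 203 CPM, above all other Col-0 libraries.

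AT1G71695 was 1 of 53 family genes tested in each of these comparisons, and the share of all genes called was 0.00541% in both, which is AT1G71695 alone. DESeq2 called 3 genes of the family against medium P (2.03% of all genes), AT1G71695, AT4G08780 and AT5G39580, and 2 against high P (0.818%), AT1G71695 and AT4G08780. At an unadjusted p below 0.05, 9 genes of the family were higher and 1 was lower in Col-0 low P against medium P, where 3.63% of all genes were higher and 4.28% lower. Against high P, 5 were higher and 2 lower, beside 2.97% and 3.11% of all genes. By non-overlap, 8 genes had all low P libraries above all medium P libraries and 1 had them below (4.42% and 6.32% of all genes), and the counts against high P were 7 and 2 (3.89% and 8.8%). The median log2 fold change of the family was 0.98 against medium P and 0.44 against high P, where it was 0.01 and 0.02 over all genes. Without Col-0 low P C these medians were -0.40 and -0.76. At an unadjusted p below 0.05, 9 were then higher and 6 lower against medium P, and 3 higher and 11 lower against high P. Of all 18404 genes tested in that fit, 948 were higher and 1390 lower against medium P, and 870 and 1375 against high P. Col-0 medium P C also mattered, since without it 5 genes of the family were called in low P against medium P. Calls over all genes were not counted in that fit, so this number does not set the family apart.

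AT4G08780, the tandem neighbour of Prx37, had the next smallest p values of the family in both. It was at 370.2, 408 and 157 CPM in Col-0 low P, at 28.1, 24.7 and 88.7 CPM in medium P, at 68.0, 37.3 and 33.9 CPM in high P and at 91.1 and 67.5 CPM in low+P. Here too the low P libraries lay above all others of Col-0. The log2 fold change was 2.74 (SE 0.539, adjusted p = 0.449 by edgeR) over medium P and 2.84 (SE 0.543, adjusted p = 0.626) over high P, while DESeq2 gave adjusted p values of 0.000313 and 0.00038. Without Col-0 medium P C the edgeR adjusted p for medium P was 0.0439. The annotation places AT4G08790 on the opposite strand over part of AT4G08780, and the libraries were not stranded, but AT4G08790 was at only 5.69 to 12.2 CPM. Prx37 was at 848, 941 and 795 CPM in Col-0 low P, against 15.7, 64.3 and 407 CPM in medium P, 355, 85.2 and 211 CPM in high P, and 495 and 300.2 CPM in low+P. Its libraries were separated in the same way, with log2 fold changes of 2.48 (SE 0.952) and 2.11 (SE 0.939) that did not pass the test.

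Among other genes with a p below 0.05, AT5G39580, a root hair peroxidase, was at 3.23, 15.3 and 21.7 CPM in Col-0 low P and at 0.265, 1.22 and 2.16 CPM in Col-0 medium P (log2 fold change 3.47, SE 1.01, adjusted p = 0.484 by edgeR). AT2G37130 was at 348, 371 and 490.2 CPM in Col-0 low P and at 70.9, 232 and 86.5 CPM in high P (log2 fold change 1.78, SE 0.622). These groups did not overlap for either gene. PER4 (AT1G14540), a gene of the lignin list with few counts, was at 1.49, 3.07 and 3.88 CPM in Col-0 low P and at 0, 0.204 and 0.541 CPM in medium P (log2 fold change 3.32, SE 0.961). AT5G51890, a gene of the lignin list, was at 0.248, 0.920 and 3.24 CPM in Col-0 low P and at 3.18, 268 and 4.15 CPM in Col-0 medium P (log2 fold change -5.93, SE 2.15, and -1.26 without Col-0 medium P B). It was at no more than 26.7 CPM in any other library, so that its level in Col-0 medium P B was 10.0 times the next highest. In that library the summed xylem markers (6 genes, all detected) were at 1277.5 CPM, against at most 796.2 CPM elsewhere, and the part of xylem tissue in this result was not tested. PA2, a peroxidase also known as PRX53, was lower in value in low P, at 5.47, 8.28 and 8.09 CPM. Medium P libraries held 20.4, 20.6 and 9.37 CPM of it and high P libraries 19.0, 13.9 and 34.9 CPM, all above those of low P (log2 fold changes -1.19 and -1.50). AT1G68850 was likewise below all high P libraries, at 12.2, 19.9 and 21.4 CPM in low P and at 44.7, 26.9 and 48.3 CPM in high P (log2 fold change -1.03, SE 0.448).

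The second question was what the addition of P to low P pots changed, which compares Col-0 low P with Col-0 low+P in a fit of 13 libraries. No family gene among the 54 tested was called by edgeR, where 0.00531% of all genes were called. At an unadjusted p below 0.05, 6 were higher and 3 lower in low P, beside 3.56% and 3.7% of all genes tested. The groups did not overlap for 7 genes in each direction (8.37% and 10.7% of all genes). DESeq2 called 3 genes of the family, AT4G37520, AT4G11290 and AT1G71695, and 1.53% of all genes. The median log2 fold change of the family was 0.79, with 34 positive and 20 negative values, and 0.02 over all genes. Without Col-0 low P C the median was -0.14, with 23 positive and 30 negative values, and 4 genes were higher and 7 lower at an unadjusted p below 0.05. Of all 18554 genes tested then, 952 were higher and 1148 lower.

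AT4G37520 had the smallest p of the family. It was at 157, 185 and 195 CPM in Col-0 low P and at 42.4 and 65.8 CPM in Col-0 low+P, and each low P library was over both low+P libraries. The log2 fold change was 1.75 (SE 0.252), with an adjusted p of 0.312 by edgeR and of 9.6e-08 by DESeq2, and 1.62 without Col-0 low P C. Its tandem neighbour AT4G37530, whose sequence differs as printed above, was at 9.69, 9.20 and 27.5 CPM in Col-0 low P and at 15.5 and 12.4 CPM in Col-0 low+P, with a log2 fold change of 0.17 (SE 0.603). The difference between these neighbours was not tested.

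The other genes with higher values in Col-0 low P than in low+P divided by how they depended on Col-0 low P C. AT1G71695 had a log2 fold change of 2.33 (SE 0.712, adjusted p = 0.450 by edgeR), and 2.37 without that library. AT4G08780 had a log2 fold change of 1.93 (SE 0.839), and 2.22 without it. AT4G11290, a peroxidase linked to lignification of the Casparian strip, was at 51.2, 88.3 and 343 CPM in low P and at 22.5 and 30.8 CPM in low+P. Its log2 fold change was 2.67 (SE 0.765, adjusted p = 0.425), and 1.34 without Col-0 low P C, with the groups apart in both cases. AT1G49570 was at 279, 196 and 640.0 CPM in low P and at 31.0 and 130.4 CPM in low+P. These did not overlap, with a log2 fold change of 2.30 (SE 0.988), and 1.56 without that library. AT3G03670 at 24.3, 76.9 and 224 CPM against 9.99 and 34.4 CPM, AT5G15180 at 10.9, 19.3 and 155 CPM against 3.51 and 12.2 CPM, and AT5G19890 at 176, 266 and 1107 CPM against 72.3 and 222 CPM overlapped between low P and low+P.

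Among genes with lower values in Col-0 low P, AT2G38380 was at 154, 209.7 and 132 CPM, against 408 and 364 CPM in low+P (log2 fold change -1.24, SE 0.372, adjusted p = 0.437 by edgeR). PA2 was at 5.47, 8.28 and 8.09 CPM in Col-0 low P, and its low+P libraries held 48.2 and 10.4 CPM (log2 fold change -2.06, SE 0.626). AT2G22420, a gene of the lignin list, was at 14.9, 23.0 and 24.6 CPM, against 39.1 and 36.0 CPM (log2 fold change -0.85, SE 0.321). All low P libraries lay below both low+P libraries for these 3 genes, although those of PA2 in low+P were far apart. AT4G36430, AT2G18150, AT1G68850, AT3G21770 and AT5G40150 followed, with log2 fold changes between -1.50 and -0.54 and adjusted p values between 0.693 and 0.839. Several of these values rested on Col-0 low+P A, without which they were -0.43 for PA2, -0.18 for AT4G36430, -0.13 for AT2G18150 and -0.12 for AT3G21770.

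**Figure D4:**
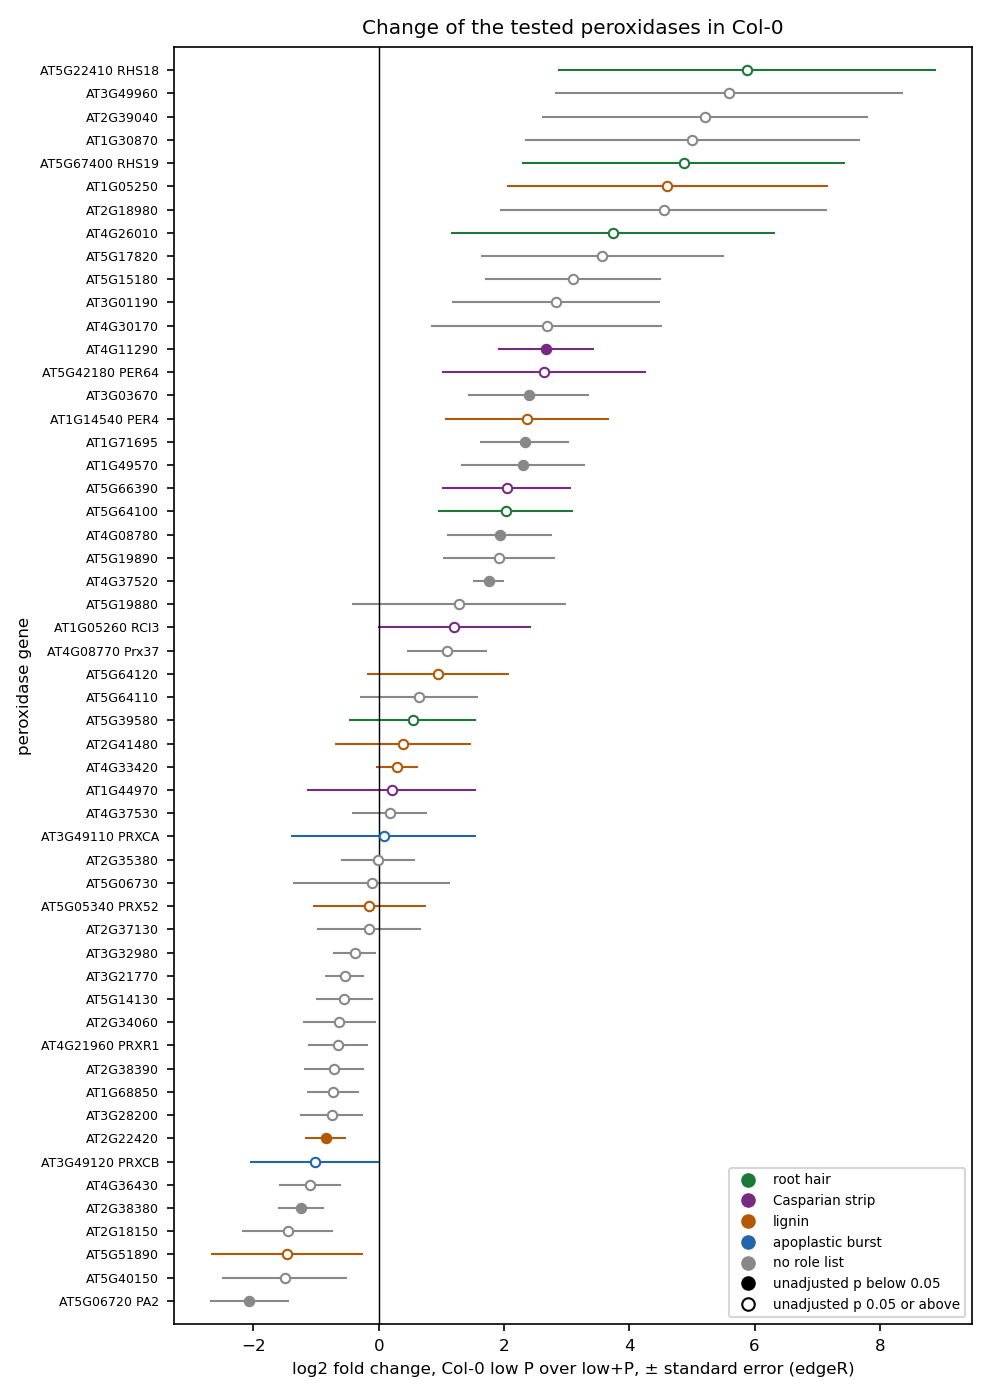
Log2 fold change of the 54 tested peroxidase genes in Col-0, low P over low+P, by edgeR, with standard errors as bars. Colours give the role lists, and filled points the 9 genes with an unadjusted p below 0.05. The 8 largest positive values, among them RHS18, RHS19 and AT4G26010, have standard errors over 2 and open points.

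The root hair and Casparian strip lists had their highest sums of 25 libraries in Col-0 low P C. Of the 6 root hair peroxidases, AT1G05240 did not pass the filter on low counts, and the 5 tested had positive values in low P over low+P and none a p below 0.05. RHS19 (AT5G67400), named for its root hair specific expression, was at 0.994, 7.66 and 189 CPM in Col-0 low P and at 0 and 5.22 CPM in low+P. AT4G26010 was at 0.745, 1.23 and 163 CPM in low P and at 0.135 and 9.35 CPM in low+P. In both genes Col-0 low P C alone was high, and without it the log2 fold changes of 4.87 and 3.74 were 0.74 and -2.21. AT5G64100, a member of a tandem group, was at 122, 267 and 900.1 CPM in Col-0 low P and at 54.0 and 174 CPM in low+P, which overlapped (log2 fold change 2.02, SE 1.08, and 0.75 without Col-0 low P C). RHS18 (AT5G22410) was at 0, 0 and 4.85 CPM in low P and at 0 in both low+P libraries. Its positive value thus came from Col-0 low P C alone and says nothing on the other libraries. The median log2 fold change of the list was 3.74 as fitted and 2.02 with RHS18 at the bound that 3 counts per library allow. Without Col-0 low P C, RHS18 was no longer tested, and the median of the 4 that were tested was 0.32.

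Markers of root hairs were also highest in Col-0 low P C. The root hair markers (6 genes) summed to 0.994, 4.90 and 288.3 CPM in Col-0 low P and to 3.51 and 5.94 CPM in Col-0 low+P, with 1, 5 and 6 markers detected in Col-0 low P A, B and C. In phf1 low P they summed to 0.319, 0 and 58.1 CPM, and all 6 were at 0 in phf1 low P B. The root hair peroxidases, summed, were at 127, 291 and 1281 CPM in Col-0 low P and at 64.2 and 196.8 CPM in Col-0 low+P, and most of these sums was AT5G64100, as it was of the 980.6 CPM in phf1 medium P A (866 CPM). They had their lowest sum, 1.33 CPM, in Col-0 medium P A, where the root hair markers were at 0.531 CPM and 4 of the 6 were at 0. phf1 medium P A, at 980.6 CPM, and phf1 high P B, at 764.7 CPM, held the next highest sums, with marker sums of 64.1 and 113.6 CPM. Other libraries did not follow the markers, since the peroxidases summed to 388 CPM in phr1 phl1 low P A with markers at 0.585 CPM, to 376.6 CPM in phf1 high P C with markers at 4.11 CPM, and to 152 CPM in Col-0 high P A with markers at 35.0 CPM. The part of root hair content in the differences between groups was not tested.

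Casparian strip peroxidases showed the same division. The list holds RCI3 (AT1G05260), AT1G44970, AT4G11290, PER64 (AT5G42180) and PRX72 (AT5G66390), of which PER64 is known to act where the strip's lignin is laid down. Summed, they were at 99.1, 177 and 983 CPM in Col-0 low P and at 90.3 and 149.7 CPM in Col-0 low+P. In low P over low+P all 5 were tested, all had positive values, 1 (AT4G11290) had a p below 0.05, and the median was 2.05. Without Col-0 low P C the median was -0.49 and 1 of the 5 was positive. PER64 was at 3.48, 7.66 and 121 CPM in low P and at 2.83 and 12.8 CPM in low+P, with a log2 fold change of 2.65, or -0.50 without Col-0 low P C. The endodermis markers (7 genes) summed to 17.4, 18.7 and 373 CPM in Col-0 low P and to 8.50 and 41.6 CPM in Col-0 low+P, with AT5G15290 at 0 in all 5 libraries. In Col-0 medium P A the Casparian strip peroxidases summed to 14.6 CPM and the endodermis markers to 1.59 CPM, both the lowest of 25, and the part of endodermis content in the group differences was not tested.

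**Figure D5:**
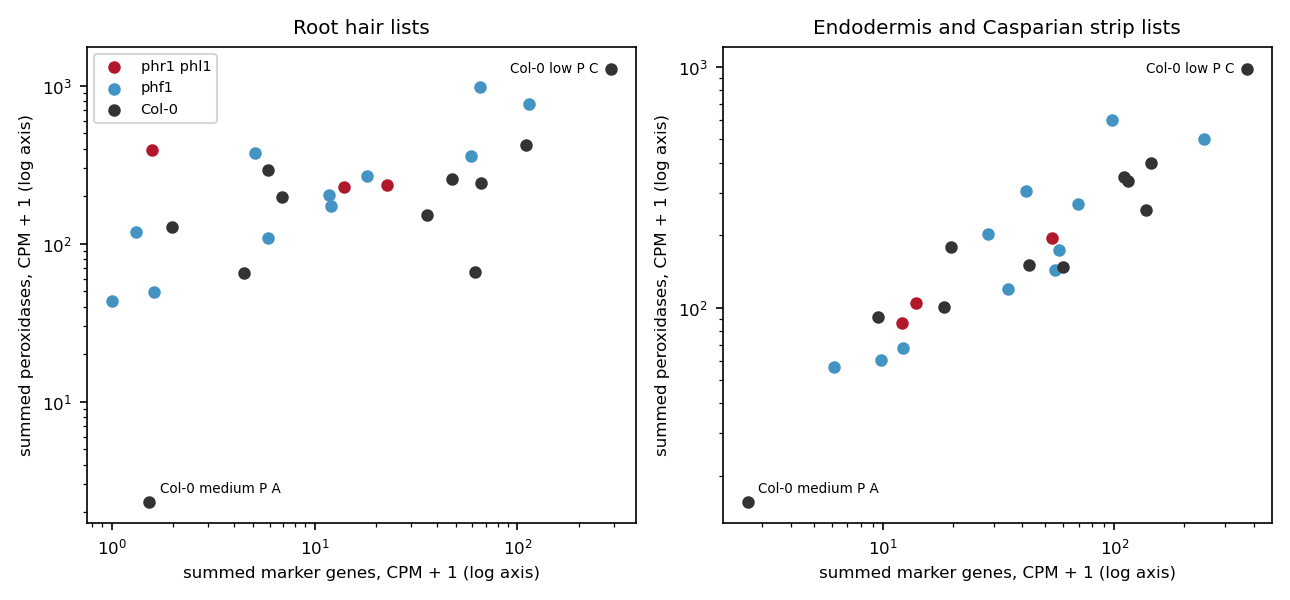
Summed root hair peroxidases against summed root hair markers (left) and summed Casparian strip peroxidases against summed endodermis markers (right), 1 point per library, as CPM + 1 on log axes. Red is phr1 phl1, blue phf1 and black Col-0. In most libraries AT5G64100 makes up most of the root hair sum. Col-0 low P C is at the upper right of both plots and Col-0 medium P A at the lower left. Both sums of a point come from the same library and share its depth and tissue composition.

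The lignin and apoplastic burst lists held no common direction. Of the 8 lignin genes, all of them tested, 5 had positive and 3 negative values, AT2G22420 alone had a p below 0.05, and the median was 0.34, or -0.41 without Col-0 low P C. AT4G33420, 1 of these, was at 293, 231 and 165 CPM in Col-0 low P and at 157 and 219 CPM in Col-0 low+P. PRXCA (AT3G49110) and PRXCB (AT3G49120), which are needed for the apoplastic oxidative burst in defence, had values of opposite sign. PRXCB was at 232, 311 and 25.9 CPM in Col-0 low P and at 561 and 155 CPM in low+P. PRXCA was at 46.0, 57.6 and 0.971 CPM in Col-0 low P and at 51.2 and 9.89 CPM in low+P. Both genes were thus at their lowest of 25 libraries in Col-0 low P C, the library with the highest root hair and Casparian strip sums, although RHS18, AT5G39580 and AT1G44970 of those lists were highest in other libraries. PRXCA was at 39.2, 354 and 4.18 CPM in phf1 low P, and its value in phf1 low P B was 5.9 times the next highest of all libraries.

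Among genes that act around the peroxidases, 8 of 10 RBOH genes were tested in Col-0 low P over low+P, and 4 had a p below 0.05 and a positive value, namely RBOHA (log2 fold change 0.55), RBOHB (2.32), AT4G25090 (2.78) and AT4G11230 (2.04). None of them was called by edgeR, 1 was by DESeq2, and without Col-0 low P C 3 were higher and 1 lower. RBOHD, the main NADPH oxidase of the oxidative burst, was at 484, 419 and 132 CPM in Col-0 low P and at 465 and 314 CPM in low+P, which overlapped. AT4G25090 was at 13.7, 28.2 and 91.2 CPM in Col-0 low P and at 5.26 and 8.28 CPM in low+P. Of 17 genes of monolignol synthesis, CAD4 (1.62) was higher and 4CL3 (-2.85) lower at an unadjusted p below 0.05. 4CL3 had few counts, at 0, 0 and 1.29 CPM in Col-0 low P and at 3.78 and 2.52 CPM in low+P. CAD4 was at 62.4, 60.4 and 275 CPM in Col-0 low P and at 50.3 and 39.2 CPM in low+P, and without Col-0 low P C no gene of the list was higher, 1 was lower and the median was -0.65. APX3 (0.61) was higher among 9 ascorbate peroxidases and catalases, which remove hydrogen peroxide, and LAC11 (-1.82) lower among 3 laccases of lignification.

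phf1 was compared with Col-0 in the same soil to ask what a block in phosphate transporter trafficking changed. In low P none of 54 genes was called by edgeR (0.00531% of all genes), and 0 were higher and 4 lower at an unadjusted p below 0.05 (1.75% and 2.9% of all genes). The groups did not overlap for 0 genes that were higher and 3 that were lower (3.56% and 3.88%), and DESeq2 called 2 (0.154%), AT4G37520 and AT4G11290. The median log2 fold change was -1.09, and 0.21 without Col-0 low P C, when 1 gene was higher and 2 lower. Of all 18554 genes tested then, 365 were higher and 525 lower. AT4G37520 was at 67.6, 87.2 and 66.7 CPM in phf1 roots, against 157, 185 and 195 CPM in Col-0 roots (log2 fold change -1.30, SE 0.215, adjusted p = 0.520 by edgeR, 8.1e-05 by DESeq2). The groups were far apart, and the value without Col-0 low P C was -1.17. AT4G11290 was at 21.7, 26.0 and 33.4 CPM in phf1 roots, against 51.2, 88.3 and 343 CPM in Col-0 roots (log2 fold change -2.65, SE 0.656), and -1.32 without Col-0 low P C. AT5G19890 was at 55.8, 94.8 and 193 CPM in phf1 roots, against 176, 266 and 1107 CPM in Col-0 roots, and these ranges overlapped. AT2G38390, with 481, 1177 and 1012 CPM in phf1 roots and 362, 626 and 432 CPM in Col-0 roots, had the smallest p among positive values (log2 fold change 0.88, SE 0.433).

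In medium P, of 56 genes tested none was called by edgeR (0.0368% of all genes) and 3 by DESeq2 (2.05%), AT3G21770, AT4G36430 and AT5G39580, and 9 were higher and 1 lower in phf1 at an unadjusted p below 0.05 (4.91% and 4.7% of all genes). Of the 9 higher by p, AT1G14550 was at 0 in all Col-0 medium P libraries and at 2.48, 0.551 and 0 CPM in phf1. Its fitted log2 fold change of 5.05 was 0.64 with Col-0 at the bound that 3 counts per library allow. The groups did not overlap for 9 that were higher and 2 that were lower (7.31% and 6.79%). AT3G21770 was at 579, 461 and 659 CPM in phf1 medium P, against 128, 246 and 362 CPM in Col-0 medium P (log2 fold change 1.20, SE 0.301, adjusted p = 0.265 by edgeR, 0.0137 by DESeq2). AT4G36430 was at 337, 325 and 393 CPM in phf1, against 70.9, 171 and 202 CPM in Col-0 (log2 fold change 1.24, SE 0.403). For both genes no libraries of the groups overlapped, and the lowest Col-0 value was Col-0 medium P A. AT5G39580 was at 40.8, 9.51 and 5.18 CPM in phf1, against 0.265, 1.22 and 2.16 CPM in Col-0 (log2 fold change 3.80, SE 1.13). AT5G51890 was lower in value in phf1, at 2.48, 1.79 and 1.21 CPM, against the 3.18, 268 and 4.15 CPM of Col-0 given above. Without Col-0 medium P C the fit called 6 genes of the family, and calls over all genes were not counted in it. The median log2 fold change was 0.55, and 0.040 without phf1 medium P A. The leaf markers, as given above, were also higher in phf1 than in Col-0 medium P, and their part in these values was not tested.

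In high P, 6 genes were higher and 1 lower in phf1 at an unadjusted p below 0.05 (2.75% and 1.96% of all genes), none of the 56 was called by edgeR (0.0105% of all genes) or DESeq2 (0.042%), and the median was 0.06. The groups did not overlap for 8 that were higher and 2 that were lower (4.27% and 6.23%). AT1G71695 was at 126, 37.4 and 108 CPM in phf1 high P, against 23.6, 23.2 and 16.6 CPM in Col-0 high P (log2 fold change 2.18, SE 0.682, adjusted p = 0.980 by edgeR). AT4G36430 was at 425, 969 and 516 CPM in phf1, against 305, 253 and 238 CPM in Col-0 (log2 fold change 1.30, SE 0.403). AT4G08780 was at 285, 117 and 118 CPM in phf1, against 68.0, 37.3 and 33.9 CPM in Col-0 (log2 fold change 1.99, SE 0.761). All phf1 libraries were above all Col-0 libraries for these 3 genes. The leaf markers summed to 2203.8, 165.8 and 61.4 CPM in phf1 high P A, B and C. In Col-0 high P they summed to 57.6 to 176.4 CPM, and their part in these values was not tested. AT2G39040 was at 0 in all phf1 high P libraries, against 4.22, 7.74 and 2.52 CPM in Col-0 high P.

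Within phf1, low P was set against the other regimes. Against low+P none of the 54 genes tested was called by edgeR or DESeq2 (0% of all genes by either), and 0 were higher and 0 lower at an unadjusted p below 0.05 (0.494% and 0.404% of all genes). The groups did not overlap for 2 that were higher and 0 that were lower (6.71% and 5.55%), and the median was 0.18. AT1G71695 was at 51.7, 178 and 32.5 CPM in phf1 low P and at 27.7 and 75.5 CPM in phf1 low+P, which overlapped. Against medium P 1 gene was higher and 4 lower (1.31% and 1.85% of all genes), and against high P 0 were higher and 6 lower (0.924% and 1.96%), with none of 53 called by edgeR in either (0% of all genes) and medians of -0.65 and -0.75. DESeq2 called none of the family in either (0.0161% and 0.0322% of all genes). The counts of genes that did not overlap were 0 higher and 3 lower against medium P (3.62% and 4.16%), and 0 higher and 7 lower against high P (1.76% and 3.55%). AT1G68850 had the smallest p of the family in both. It was at 8.61, 14.8 and 26.7 CPM in phf1 low P, at 36.9, 38.7 and 35.9 CPM in phf1 medium P (log2 fold change -1.12, SE 0.308, adjusted p = 0.978 by edgeR) and at 26.8, 36.5 and 27.2 CPM in phf1 high P (log2 fold change -0.78, SE 0.307). The low P libraries lay below all libraries of medium and high P. AT2G35380, at 9.57, 7.93 and 15.4 CPM in phf1 low P and at 20.1, 20.6 and 34.4 CPM in phf1 high P, was also apart. AT4G08780 was the 1 gene with a positive value and a p below 0.05, at 186, 445 and 42.1 CPM in phf1 low P and at 116, 26.6 and 38.0 CPM in phf1 medium P, and these ranges overlapped.

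Whether phf1 and Col-0 responded to P differently was tested as the difference of their changes. For low P against low+P none of 54 genes was called by edgeR (0% of all genes), 2 had a larger and 2 a smaller change in phf1 at an unadjusted p below 0.05 (2.15% and 1.75% of all genes), and DESeq2 called AT4G37520 (0.085% of all genes). The median difference was -0.31. Without Col-0 low P C it was 0.47, and 7 had a larger and 2 a smaller change. Of all 18554 genes tested then, 963 had a larger and 723 a smaller change. The change of AT4G37520 was 0.15 (SE 0.239) in phf1 and 1.75 in Col-0 on the log2 scale, with a difference of -1.61 (SE 0.338, adjusted p = 1.0 by edgeR, 0.0229 by DESeq2). phf1 low+P was at 65.4 and 65.7 CPM. For low P against medium P 1 was larger and 9 smaller in phf1 (2.76% and 3.47% of all genes), and for low P against high P 0 were larger and 7 smaller (2.08% and 3.05%). None of the 56 genes was called by edgeR in either (0.0105% of all genes in both), and DESeq2 called AT5G39580 for medium P (0.236% of all genes) and none for high P (0.0998%). The median differences were -1.44 and -0.96, and without Col-0 low P C they were -0.06 and 0.28. For AT1G71695 the differences were -2.76 (SE 0.934, adjusted p = 0.698 by edgeR) and -3.24 (SE 0.939, adjusted p = 0.966). These differences and the comparisons within Col-0 share the Col-0 libraries. Without Col-0 medium P C, 4 genes of the family were called in the difference for medium P, AT4G37520 among them (-3.58, adjusted p = 0.0269). Calls over all genes were not counted in that fit.

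phr1 phl1 was compared with Col-0 in low P to ask which genes depend on these regulators of the PSR. None of the 54 genes was called by edgeR (0% of all genes). At an unadjusted p below 0.05, 0 were higher and 8 lower in phr1 phl1 (2.94% and 4.6% of all genes), and the groups did not overlap for 3 genes that were higher and 13 that were lower (12.7% and 14%). DESeq2 called 5 (0.972% of all genes). The median log2 fold change was -1.38, and 0.01 without Col-0 low P C, when 0 genes were higher and 6 lower. Of all 18554 genes tested then, 427 were higher and 566 lower. The 6 xylem markers were all lower in value (median log2 fold change -0.73, and -1.11 without Col-0 low P C), as were the 3 general root markers (-1.56 and -0.44) and the 3 laccases (-1.30 and -1.29). Other lists did not share this direction. Without Col-0 low P C, 4 of 5 root hair markers (median 1.76), 6 of 7 leaf markers (0.39) and 12 of 17 monolignol genes (0.15) were positive. Endodermis markers were then 3 positive and 3 negative (-0.33). phr1 phl1 low P A had the lowest xylem sum of 25 libraries, 71.0 CPM, and the part of tissue content in this comparison was not tested. AT1G71695 was at 14.9 and 9.48 CPM in phr1 phl1 roots, against 203, 178 and 157 CPM in Col-0 roots. This was the smallest p of the family in this comparison (log2 fold change -3.84, SE 0.789, adjusted p = 0.513 by edgeR, 3.4e-05 by DESeq2), and the value was -3.88 without Col-0 low P C. Its level in phr1 phl1 low P was thus in the range of the Col-0 medium P and high P libraries or under it. AT4G08780 was at 57.9 and 35.7 CPM in phr1 phl1, against 370.2, 408 and 157 CPM in Col-0 (log2 fold change -2.68, SE 0.877), and Prx37 at 302 and 289 CPM, against 848, 941 and 795 CPM (-1.53, SE 0.650). AT4G11290 was at 32.4 and 29.6 CPM in phr1 phl1, against 51.2, 88.3 and 343 CPM in Col-0 (-2.42, SE 0.761), and -1.08 without Col-0 low P C. AT5G19890 was at 40.3 and 99.0 CPM in phr1 phl1, against 176, 266 and 1107 CPM (-2.97, SE 0.948), and -1.61 without that library. AT4G37520 was at 116 and 103 CPM in phr1 phl1, against 157, 185 and 195 CPM (-0.70, SE 0.242). PRX52 (AT5G05340) was at 0 and 1.90 CPM in phr1 phl1, against 8.45, 20.5 and 3.24 CPM. AT4G36430, AT2G38390 and AT2G38380 had the smallest p among positive values, with log2 fold changes of 1.05, 0.75 and 0.58 and adjusted p values from 0.639 to 0.646.

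A test across the 6 low P and low+P groups, which includes the library labelled phr1 phl1 low+P, called none of 54 family genes by edgeR (0% of all genes). At an unadjusted p below 0.05 there were 5 (3.6% of all genes), and DESeq2 called 4 (1.11% of all genes), AT4G37520, AT1G71695, AT4G11290 and AT4G08780.

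PHR1 and PHL1 bind a short element, P1BS, with the letters GNATATNC, which reads the same on both strands. It was searched in the 500 bases before each annotated gene start (RefSeq, TAIR10.1), and was found for 6 of the 60 peroxidase genes (10.0%) and for 2856 of 26718 genes (10.7%). The matches of the 6 carriers are shown with up to 30 bases around them and the element in capitals.
Prx37, 351 bases before the start: gaagttttactGTATATGCacaaaaaataa
PRXCB, 439 bases before the start: cctttgtaagaGAATATTCgtatttggacg
PRXCB, 327 bases before the start: atatgcattttGAATATACtctagatatta
AT5G64120, 403 bases before the start: aaaaaatggatGTATATACaaatttcctaa
AT1G30870, 97 bases before the start: gcaagtcactcGAATATTCaaatcttaaag
AT3G32980, 483 bases before the start: ttcatgttaaaGCATATACaatatattttt
AT5G58390, 178 bases before the start: caccttaaaacGTATATACtcccgacgaat
AT5G58390, 14 bases before the start: agtaatatagtGGATATTCgagaaa
Prx37 was the 1 carrier with a p below 0.05 in phr1 phl1 against Col-0 in low P (log2 fold change -1.53), and the values of the others that were tested were -4.79 for AT1G30870 (SE 2.77), -0.19 for AT3G32980, 0.19 for PRXCB and -1.44 for AT5G64120. The letters were not found in the window of AT1G71695, AT4G37520 or AT4G08780.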

How the data were processed

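Total RNA of roots was made into non-stranded poly(A) libraries. The authors trimmed reads with Trimmomatic 0.36, mapped them to TAIR10 with HISAT2 2.1.0 and deposited raw counts per gene from featureCounts (version not given in the sources used here). Of 27206 genes, 3571 had no count. Columns name the group only, so libraries could not be paired.

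From these counts edgeR 4.0.16 (R 4.3.3) fitted quasi-likelihood models with TMM scaling and filterByExpr in 4 sets of libraries, namely the 13 low P and low+P, the 11 Col-0, the 11 phf1, and the 22 Col-0 and phf1 libraries. P-values are two-sided, adjusted by Benjamini-Hochberg over all genes tested and called below 0.1. DESeq2 1.42.0, other filters, 1 fit of all 25 libraries and leaving out each library were alternatives. The sources used here do not tie a library to a plot, so p-values measure only the spread between these libraries. The peroxidases and lists were chosen with earlier results of these data known. Genes are named where they are among the 8 most abundant, have the smallest p values of a comparison (up to 3 per direction, or 8 where low P and low+P of Col-0 are compared), belong to a role list or have 1 library over 5 times the next. Of the 27206 identifiers 26719 matched the RefSeq annotation of TAIR10.1, with all 60 peroxidases. It served for names, exon lengths and sequences, and no coordinates are given. Scripts were tested on simulated data.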

Additional observations from a re-analysis of the deposited data

How the results depend on the processing

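No paired analysis was possible because the columns carry neither a replicate number nor a plot. With DESeq2 the counts of peroxidases called were 2 for Col-0 low P against high P, 3 against medium P and 3 against low+P, 2 for phf1 against Col-0 in low P and 3 in medium P, 5 for phr1 phl1 against Col-0 in low P, 1 for the difference in the low+P change, 1 for that in the medium P change and 4 across the 6 groups. In 1 fit of all 25 libraries the count was 0 for Col-0 low P against medium P and 0 against high P (AT1G71695, adjusted p = 0.125 and 0.266). Leaving out 1 library moved the counts between 1 and 5 for Col-0 low P against medium P, between 0 and 6 for phf1 against Col-0 in medium P and between 0 and 4 for the difference in the medium P change, the highest each time without Col-0 medium P C. Calls over all genes were not counted in the fits without Col-0 medium P C. AT1G71695 stayed below 0.1 in all 11 such fits, with adjusted p values up to 0.0397 for medium P and 0.0956 for high P. With TMM factors the summed level of the family under the label phr1 phl1 low+P was 13727.5 CPM in place of 13736.3 CPM.

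Leaving out 1 library, the median log2 fold change of the family changed sign in 10 comparisons. Without Col-0 low P C it reached one end of the ranges -0.76 to 0.76 (Col-0 low P against high P), -0.40 to 1.74 (medium P), -0.14 to 1.52 (low+P), -1.33 to 0.21 (phf1 against Col-0 in low P), -1.75 to 0.014 (phr1 phl1 against Col-0), -1.07 to 0.47 (difference in the low+P change) and -1.94 to 0.28 (difference in the high P change). The difference in the low+P change was also 0.22 without phf1 low+P A, and 0.22 without both near-identical low+P libraries, an alternative chosen after seeing the data. The ranges were -0.31 to 0.32 for phf1 against Col-0 in high P (low end without phf1 high P B), -0.46 to 0.89 for phf1 low P against low+P (without phf1 low P C) and -1.27 to 0.039 for phf1 low P against medium P (high end without phf1 medium P A). Among genes named for their p values, those that changed sign were in phf1 low P. AT3G49110 (PRXCA) ran between -0.076 and 4.42 against high P, -0.74 and 2.36 against low+P and -0.16 and 3.64 against medium P, and AT5G19880 between -1.32 and 2.11 against high P, each low end without phf1 low P B. AT5G05340 (PRX52) ran between -1.49 and 0.65 against low+P (high end without phf1 low+P B). The causes were not tested. Genes near the floor of 3 counts, such as RHS18 and AT4G17690, allow no statement on change at this depth.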

Other observations

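Other genes of the family that no comparison above turned on also stood high in Col-0 low P C. AT4G30170 was at 22.4, 94.1 and 909 CPM in Col-0 low P A, B and C, and AT3G01190 at 43.7, 123 and 1110.1 CPM. AT5G17820 was at 5.22, 27.0 and 333 CPM, and AT3G49960 at 0, 0 and 79.9 CPM. In phf1 high P B the same genes were at 722, 330.1, 148 and 23.1 CPM, and in Col-0 medium P A at 3.98, 3.45, 0.796 and 0 CPM. These genes were picked after their values were seen, and no test was run on them as a set.

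The near-identical pair, labelled phr1 phl1 low+P and phf1 low+P A, held like levels of the peroxidases named here. PRXR1 was at 8034 CPM under the label phr1 phl1 low+P and at 8968 CPM in phf1 low+P A. AT3G01190 was at 156 and 159 CPM, AT1G71695 at 30.3 and 27.7 CPM, and AT4G37520 at 63.4 and 65.4 CPM, in the same order. The other phf1 low+P library held 13828, 17.9, 75.5 and 65.7 CPM of these 4 genes.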
